A study of Homo sapiens with 12 samples.

Results

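The Mediator genes were 33 protein-coding genes out of 60666 genes in the deposited table, namely those whose symbols carry a MED number, and CDK8, CDK19 and CCNC. They were sorted by position in the complex into 12 head genes, 8 middle genes, the scaffold gene MED14, 5 tail genes and 7 kinase module genes. The RNA came from KMS-11, KMS-12 and RPMI8226, established human multiple myeloma lines labelled WT. Each line received 1 µM JQ1 for 72 h or an equal volume of its solvent DMSO, with 2 libraries in each of the 6 groups and 12 in all. The study asked how this drug acts on genes that are switched on in myeloma. The design text speaks of duplicates without naming separate cultures. The p-values below rest on the spread between duplicates, estimated over all 6 groups together, and this spread may be technical.

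Mediator is a large protein assembly that relays signals from transcription factors to RNA polymerase II at promoters. The head and middle modules contact the polymerase, the tail module meets activators, and MED14 runs through all of them as a backbone. The kinase module holds CDK8 or its paralog CDK19, cyclin C (CCNC), MED12 or MED12L, and MED13 or MED13L, and it docks on the core reversibly and hinders the binding of the polymerase. JQ1 blocks the bromodomains by which BET proteins bind acetylated histones.

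Library totals ran from 15424512 to 27366499 counts, and levels are given as CPM, that is counts scaled to a common library total, with library sizes adjusted by TMM. Duplicates differed by more than sampling noise in every group (chi-square over its degrees of freedom, 5.64 to 22.3). All 9 plasma cell and myeloma markers had reads in every group. In KMS-11 their summed level was 3240 to 4560 CPM in JQ1 libraries, against 7470 to 8070 CPM in DMSO libraries. In KMS-12 it was 4060 to 4100 CPM in JQ1 libraries, against 2510 to 2550 CPM in DMSO libraries, and in RPMI8226 3300 to 3390 CPM against 4900 to 5940 CPM. Single markers moved in opposite directions within these sums. In KMS-12 the mean of IRF4 was 2400 CPM with JQ1, against 1420 CPM with DMSO, with PRDM1, XBP1, CD38 and SDC1 also higher. JCHAIN there was 82.6 against 254 CPM, with TNFRSF17, SLAMF7 and MZB1 also lower. In KMS-11 JCHAIN was 1990 against 5190 CPM, and only PRDM1 (458 against 215 CPM) and CD38 (0.756 against 0.6 CPM) were higher. Over all libraries the 4 B cell markers summed to between 0 and 3.21 CPM, the 5 T and NK cell markers to between 0.561 and 10.9 CPM, the 4 myeloid markers to between 0.57 and 24.4 CPM and the 4 epithelial and stromal markers to between 5.15 and 40.9 CPM. The epithelial and stromal sum was lower with JQ1 in every line, at 5.15 to 22.7 CPM in JQ1 libraries, against 28.2 to 40.9 CPM in DMSO libraries. The B cell and the T and NK cell sums were also lower with JQ1 in every line, the second at 0.561 to 4.83 CPM in JQ1 libraries, against 2.79 to 10.9 CPM in DMSO libraries. The myeloid sum was lower in RPMI8226, at 2.63 to 4.81 CPM with JQ1, against 19.6 to 24.4 CPM with DMSO, and higher in KMS-11, where the JQ1 libraries were at 3.31 and 3.95 CPM and both DMSO libraries below them. In KMS-12 it was 1.26 CPM in both JQ1 libraries, against 0.57 to 0.619 CPM in DMSO libraries. NKG7 and HBB were at 0 in every library, and the B cell gene MS4A1 was at 0 in KMS-12 and in the JQ1 libraries of KMS-11. The part of these markers in the results was not tested.

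A single non-coding RNA, MALAT1, was the most read gene in every library and took a larger share with JQ1. In KMS-12 it held 25.7% and 25.8% of the counts in JQ1 libraries, against 8.06% and 9.01% in DMSO libraries. In KMS-11 it held 16.5% and 14.5% in JQ1 libraries, against 3.98% and 3.61% in DMSO libraries, and in RPMI8226 6.56% and 6.31% against 4.11% and 4.58%. When library size alone took the place of TMM scaling, the log2 change of a gene shifted by a median over all genes of -0.35 for the average of lines, -0.26 for KMS-11, -0.77 for KMS-12 and -0.03 for RPMI8226. Each direction below is therefore read under 4 scalings, which are TMM, RLE, library size alone, and library size without MALAT1, the last chosen after seeing the data. In the average, RLE moved genes by a median of -0.01 and library size without MALAT1 by -0.18. Every alternative thus moved genes down there, so a call that a gene fell could hardly be lost by them.

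Mediator genes were called in both directions with JQ1. In the average of the 3 lines, 16 of the 33 genes rose, 6 fell and 11 were not called (edgeR quasi-likelihood test, Benjamini-Hochberg, BH, adjusted p under 0.05 over all genes tested). That is 66.7% of the members, where 49.0% of the 23493 genes tested were called, 22.3% higher and 26.7% lower. Among genes with a mean of at least 10 CPM, 70.5% were called, so the share of members called was near that of well-read genes. The median log2 change was 0.17 over the members, against -0.10 over all genes tested and -0.02 over genes with a mean of at least 10 CPM. The median of the members lay above that of all genes tested by 0.27 to 0.28 under each of the 4 scalings. A change of scaling moves nearly all genes alike, so it could hardly change this gap. All 6 falls were called under the 4 scalings, but the alternatives to TMM moved genes down, so falls could hardly be lost. Of the 16 rises only those of MED11, MED19, MED20, MED29 and MED14 were called under all 4. Library size alone gave 5 rises and 17 falls. RNA was taken from whole cultures, so fewer cells that express a gene and less RNA per cell cannot be told apart.

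In KMS-11, 9 members rose and 6 fell, where 38.5% of all genes tested were called, 17.3% higher and 21.2% lower; library size alone turned this split to 2 rises and 13 falls, and of the 9 rises only those of MED19 and MED20 were called under all 4 scalings. In KMS-12, 18 rose and 4 fell, where 46.0% of all genes were called, 20.2% higher and 25.7% lower; library size alone turned this split to 1 rise and 20 falls, and library size without MALAT1 to 6 rises and 12 falls. In RPMI8226, 6 rose and 4 fell, where 32.2% of all genes were called, 13.6% higher and 18.6% lower, and all 10 of these calls held under the 4 scalings. There the scaling moved genes little, by a median of -0.04 with RLE and -0.03 with library size alone. Both JQ1 libraries lay above both DMSO libraries for 12 members of KMS-11, 20 of KMS-12 and 15 of RPMI8226, where 30.0%, 31.6% and 30.1% of all genes did. They lay below for 12, 8 and 9 members in the same order of lines, where 33.5%, 40.6% and 35.7% of all genes did. Comparisons of libraries by CPM, here and for single genes below, rest on TMM scaling alone and were not repeated under the others. Where the log2 change of a gene turned with another scaling, its separation could turn too.

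The 4 genes called higher in each of the 3 lines were MED11, MED19, MED20 and MED14, and both MED22 and MED24 were called lower in each. Of all genes tested, 6.04% were higher and 6.37% lower in every line. In KMS-12 the rise of MED20 turned to -0.35 and that of MED19 to -0.15 on the log2 scale with library size alone. Another 7 members were called in no line, and MED28 was called higher in one line and lower in another.

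**Figure D1:**
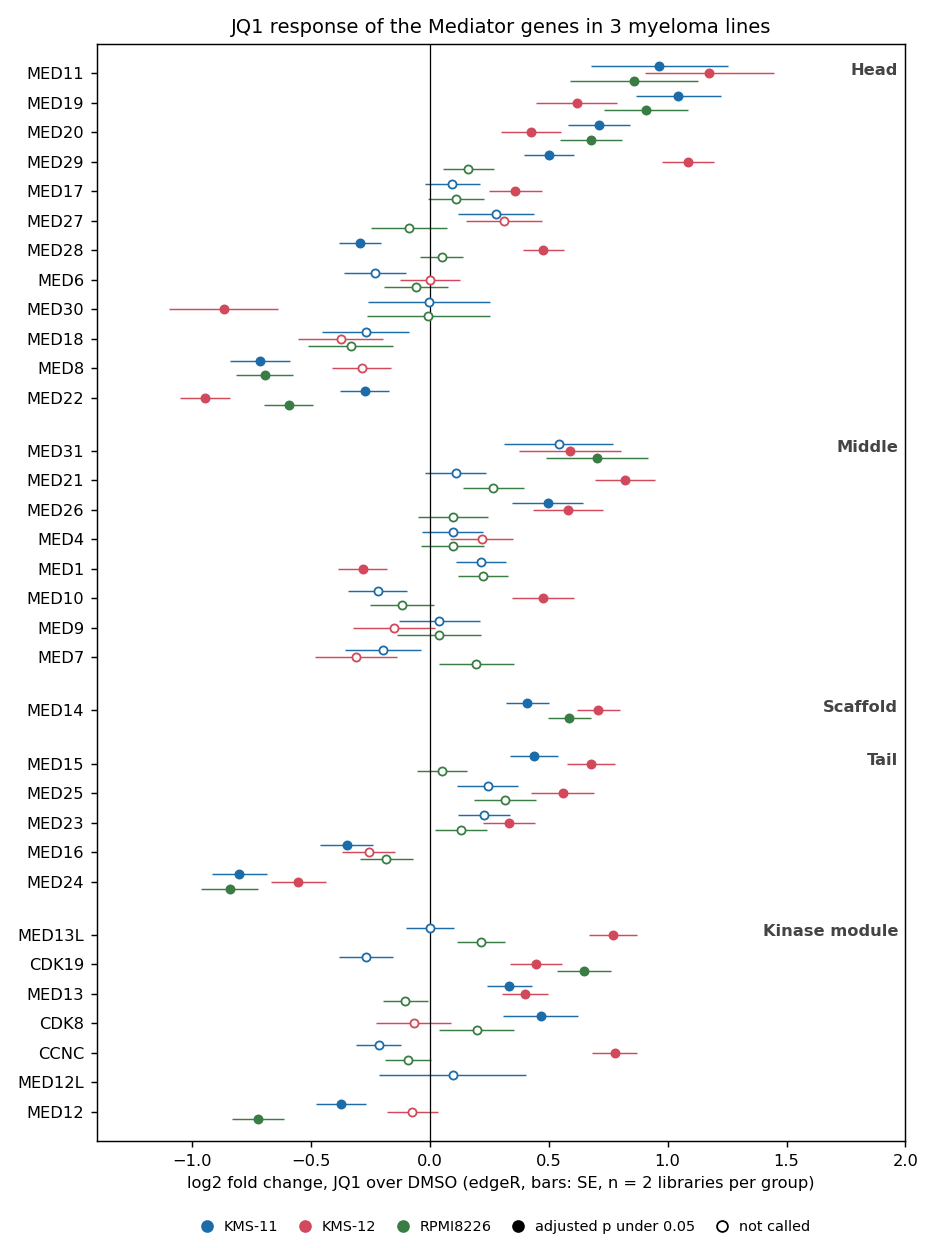
Log2 fold change (JQ1 over DMSO, x axis) of each Mediator gene in KMS-11, KMS-12 and RPMI8226, grouped by module, with bars for the standard error (edgeR, n = 2 libraries per group) and filled points where the adjusted p was under 0.05. MED11, MED19 and MED20 lie right of 0 and MED24 and MED22 left of it in all 3 lines, while CCNC, MED28 and MED13L lie well apart between lines. MED12L had no reads in KMS-12 and RPMI8226 and is drawn for KMS-11 only.

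The head module held the largest rises and 3 of the 6 falls. Of its 12 genes, 5 rose, 3 fell and 4 were not called in the average of the lines (median log2 change 0.12). That is 66.7% called, where 49.0% of all genes tested were and 70.5% of those with a mean of at least 10 CPM. Recent structures place MED19 with the middle and MED27 to MED30 with the tail, and under that assignment 3 of 7 head genes rose and 3 fell. The promoter stretches of the 3 head genes that rose in every line are shown to let their letters be compared. They run from 250 bases before to 50 after the RefSeq start (GRCh38.p14), 5′ to 3′ along the gene, with capitals for every match, on either strand, of the ETS core CCGGAAG, the NRF1 core GCGCANGC, the GC box GGGCGG, the CCAAT box, the E-box CACGTG or the TATA box TATAAA.
MED11 (chr17:4731178-4731477, plus strand): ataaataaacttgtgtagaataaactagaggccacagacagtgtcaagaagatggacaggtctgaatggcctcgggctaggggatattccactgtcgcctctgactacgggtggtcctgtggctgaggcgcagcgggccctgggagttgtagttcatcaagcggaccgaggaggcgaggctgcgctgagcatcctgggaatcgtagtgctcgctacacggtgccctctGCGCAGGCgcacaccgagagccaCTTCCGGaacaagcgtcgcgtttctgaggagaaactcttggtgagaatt
MED19 (chr11:57712166-57712465, minus strand): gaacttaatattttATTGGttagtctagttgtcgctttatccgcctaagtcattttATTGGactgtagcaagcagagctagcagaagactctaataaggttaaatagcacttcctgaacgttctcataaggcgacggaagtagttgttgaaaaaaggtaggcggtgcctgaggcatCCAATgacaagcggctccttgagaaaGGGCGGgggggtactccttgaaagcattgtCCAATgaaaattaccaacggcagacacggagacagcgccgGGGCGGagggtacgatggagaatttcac
MED20 (chr6:41920894-41921193, minus strand): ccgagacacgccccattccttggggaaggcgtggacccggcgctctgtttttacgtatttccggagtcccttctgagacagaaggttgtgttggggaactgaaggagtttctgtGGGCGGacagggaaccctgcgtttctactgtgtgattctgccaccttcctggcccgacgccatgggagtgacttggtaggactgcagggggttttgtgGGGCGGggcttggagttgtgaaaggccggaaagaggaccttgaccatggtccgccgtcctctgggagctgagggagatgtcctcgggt
MED11 carries 1 ETS core and 1 NRF1 core, MED19 2 GC boxes and 4 CCAAT boxes, and MED20 2 GC boxes, so no motif of the 6 is shared by all 3. Of the 25 members with a RefSeq promoter, 28% held the ETS core, against 16.5% of 15843 protein-coding genes. The GC box was in 64% of members, against 64.3% of those genes, and the NRF1 core in 28%, against 19.5%. The CCAAT box was in 40% against 42.1%, the E-box in 8% against 10.9% and the TATA box in 8% against 12.4%. These are matches of letters and not sites shown to be bound.

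MED11 (ENSG00000161920; chromosome 17, 4731428 to 4733610, plus strand, GRCh38), a small head subunit that pairs with MED22, had the largest rise in the average of the lines, and was also among the least read members. KMS-11 had 3.57 and 3.98 CPM in JQ1 libraries, against 2.21 and 1.64 CPM in DMSO libraries. KMS-12 had 4.998 and 6.16 CPM with JQ1, against 2.74 and 2.19 CPM with DMSO, and RPMI8226 had 6.19 and 5.70 CPM, against 4.05 and 2.57 CPM. JQ1 and DMSO libraries did not overlap in any line, although each library held only 38 to 132 MED11 reads. The average log2 change was 1.00 (SE 0.16; edgeR quasi-likelihood, BH-adjusted p = 3.96e-05). The rises in single lines rested on few reads: the KMS-11 call (0.97) was lost without its JQ1 replicate 2 (0.89) or DMSO replicate 2 (0.79), and the RPMI8226 call (0.86) was lost without its JQ1 replicate 1 (0.79) or DMSO replicate 2 (0.55). Scaled by library size alone, KMS-11 (0.70) and KMS-12 (0.41) were not called.

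MED19 (ENSG00000156603; chromosome 11, 57703714 to 57712323, minus strand), which sits at the hook joining core and kinase module, had 12.6 and 16.0 CPM in JQ1 libraries of KMS-11, against 7.47 and 6.37 CPM in DMSO libraries. In KMS-12 it had 16.5 and 18.5 CPM with JQ1, against 11.7 and 11.1 CPM with DMSO, and in RPMI8226 19.5 and 16.2 CPM, against 9.68 and 9.35 CPM. The groups were apart in every line. The average log2 change was 0.86 (SE 0.10; edgeR quasi-likelihood, BH-adjusted p = 1.18e-06), and the KMS-12 call (0.62) was lost without JQ1 replicate 2 (0.54) or DMSO replicate 2 (0.59) of that line.

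MED20 (ENSG00000124641; chromosome 6, 41905354 to 41921139, minus strand), a head subunit that binds MED18, had 26.2 and 26.4 CPM in JQ1 libraries of KMS-11, against 15.7 and 16.4 CPM in DMSO libraries. In KMS-12 it had 36.7 and 34.7 CPM with JQ1, against 26.7 and 26.4 CPM with DMSO, and in RPMI8226 28.5 and 24.5 CPM, against 17.9 and 15.3 CPM. Again no JQ1 library overlapped a DMSO library of its line. The average log2 change was 0.61 (SE 0.08; edgeR quasi-likelihood, BH-adjusted p = 2.23e-06), with the KMS-12 call (0.43) lost without JQ1 replicate 1 (0.39), DMSO replicate 1 (0.43) or DMSO replicate 2 (0.42) of that line. Its partner MED18 fell, with an average of -0.33 (SE 0.10) that no single line passed. The MED18 average was lost without DMSO replicate 1 of KMS-11 (-0.25) or of RPMI8226 (-0.29).

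MED29, a subunit related to the Drosophila protein intersex, rose in the KMS lines. KMS-12 had 59.1 and 64.9 CPM in JQ1 libraries, against 26.5 and 31.8 CPM in DMSO libraries. KMS-11 had 76.7 and 78.9 CPM with JQ1, against 53.8 and 56.0 CPM with DMSO, and RPMI8226 55.1 and 50.6 CPM, against 48.4 and 46.2 CPM. The fitted log2 change was 1.09 in KMS-12 (SE 0.11), 0.50 in KMS-11 (SE 0.11) and 0.16 in RPMI8226 (SE 0.11), the last not called, and with library size alone KMS-11 (0.24) was not called either. The responses differed between lines (edgeR F test, BH-adjusted p = 0.000504), but not with library size alone (0.584) or without MALAT1 in it (0.0599).

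Against these rises, MED22 and MED8 fell. MED22 (ENSG00000148297; chromosome 9, 133338323 to 133348131, minus strand), the partner of MED11, had 25.1 and 25.7 CPM in JQ1 libraries of KMS-12, against 48.5 and 49.4 CPM in DMSO libraries. In RPMI8226 it had 46.2 and 51.8 CPM with JQ1, against 71.9 and 75.8 CPM with DMSO, and in KMS-11 36.4 and 36.0 CPM, against 45.9 and 41.7 CPM. All 3 lines had the JQ1 libraries below the DMSO libraries, so the members of this pair moved in opposite directions. The log2 change of MED22 was -0.95 in KMS-12 (SE 0.11), -0.59 in RPMI8226 (SE 0.10) and -0.27 in KMS-11 (SE 0.10), and the KMS-12 fall was larger than the KMS-11 fall by -0.67 (SE 0.15; edgeR quasi-likelihood, BH-adjusted p = 0.00299). The KMS-11 call was narrow (edgeR, BH-adjusted p = 0.0441) and was lost without any library other than DMSO replicate 2 of KMS-11 or a JQ1 library of RPMI8226, at -0.20 to -0.28.

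MED8 (ENSG00000159479; chromosome 1, 43383917 to 43389808, minus strand), which tethers the MED18 and MED20 pair in yeast, had 34.1 and 36.2 CPM in JQ1 libraries of RPMI8226, against 61.6 and 52.3 CPM in DMSO libraries. In KMS-11 it had 18.8 and 16.8 CPM with JQ1, against 30.1 and 28.4 CPM with DMSO, and in KMS-12 23.3 and 26.6 CPM, against 30.6 and 30.2 CPM. The libraries were apart in every line. Fitted log2 changes were -0.69 in RPMI8226 and -0.71 in KMS-11, both called, and -0.29 in KMS-12, not called (edgeR quasi-likelihood, BH-adjusted p = 0.0671). The responses of the lines were not called as different (edgeR F test, BH-adjusted p = 0.109).

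MED28, which is also known as a binding partner of merlin, was the member called in both directions. KMS-12 had 242 and 249 CPM in JQ1 libraries, against 173 and 179 CPM in DMSO libraries. KMS-11 had 127 and 118 CPM with JQ1, against 154 and 148 CPM with DMSO, and RPMI8226 103 and 98.0 CPM, against 101 and 92.8 CPM. Thus the groups were apart with JQ1 above in KMS-12 and below in KMS-11, and overlapped in RPMI8226. The change on the log2 scale was 0.48 in KMS-12 (SE 0.09), -0.29 in KMS-11 (SE 0.09) and 0.05 in RPMI8226, with a difference between lines (edgeR F test, BH-adjusted p = 0.000456) that was called under the 4 scalings. The pattern of that difference changed: RPMI8226 minus KMS-12 was -0.43 with TMM and 0.31 with library size alone. The direction in KMS-12 did not hold: it was 0.01 with library size without MALAT1 and -0.29 with library size alone. The KMS-11 call was lost without JQ1 replicate 2 (-0.24). FAM184B on the opposite strand covers 32.1% of the exonic bases of MED28 and had a mean of at most 0.495 CPM in any group.

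MED17, MED18 and MED30 were called in fewer tests, and MED6 and MED27 in none. MED17, the large central head subunit, was called in the average at 0.19 (SE 0.07), a call that DESeq2 (0.17) and library size without MALAT1 (0.01) ended and that library size alone turned to a call in the other direction (-0.16). It was also lost without KMS-11 JQ1 replicate 1 (0.18), KMS-12 JQ1 replicate 2 (0.18), DMSO replicate 1 of KMS-12 (0.18) or DMSO replicate 1 of RPMI8226 (0.16). Of the single lines, MED17 was called in KMS-12 alone, at 0.36 (SE 0.11), and library size alone turned this to a call at -0.41. The KMS-12 call was lost without JQ1 replicate 2 (0.33), DMSO replicate 1 (0.34) or DMSO replicate 2 (0.39) of that line. MED30, a subunit not found in yeast, was called in KMS-12 alone at -0.87 (SE 0.23), lost without its JQ1 replicate 2 (-0.80) or DMSO replicate 1 (-0.71). Its response was not called as different between lines (edgeR F test, BH-adjusted p = 0.0827). MED6 and MED27 had average log2 values of -0.10 and 0.17.

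**Figure D2:**
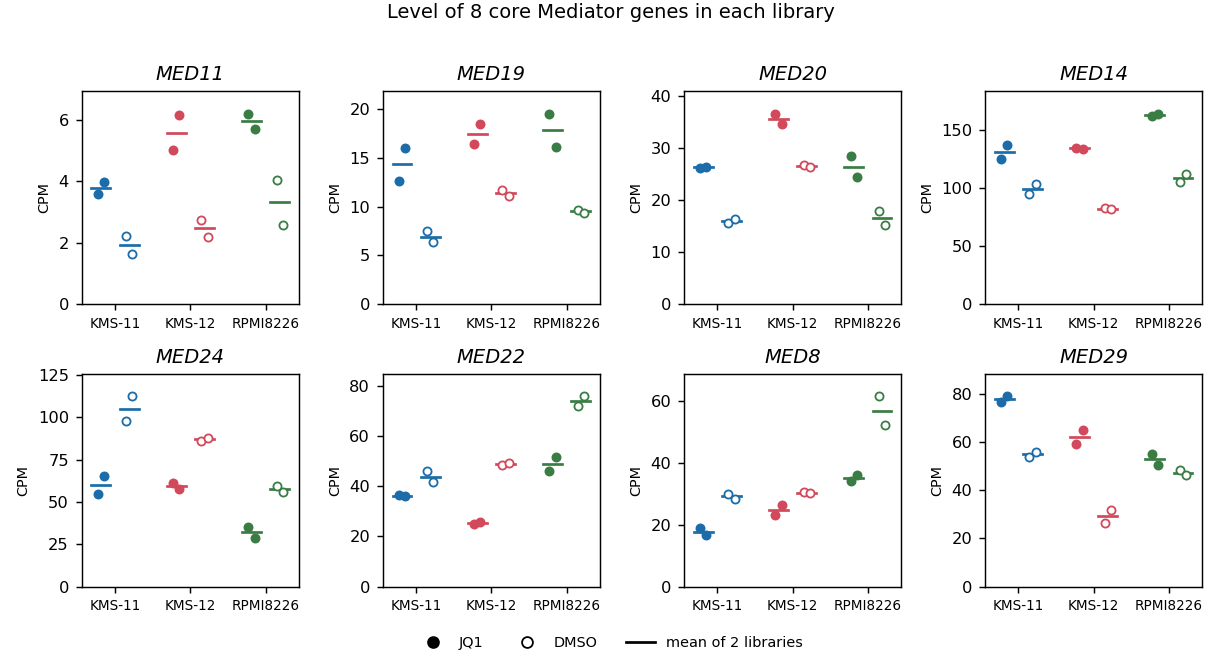
Level in CPM (y axis, from 0) of 8 core Mediator genes in each library, JQ1 as filled points left of DMSO as open points, with a line at the mean of the 2 libraries. JQ1 libraries lie above DMSO libraries in all 3 lines for MED11, MED19, MED20, MED14 and MED29 and below them for MED24, MED22 and MED8.

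In the middle module 3 of 8 genes, MED31, MED21 and MED26, rose in the average and 0 fell (median log2 change 0.09). That is 37.5% called, where 49.0% of all genes tested were and 70.5% of those with a mean of at least 10 CPM. With library size alone none of these 3 rises was called, at 0.26, 0.05 and 0.04 in the same order. In KMS-12 4 of the 8 rose and 1 fell, or 62.5% called. Of all genes 46.0% were called there, and 65.1% of those with a mean of at least 10 CPM. With library size alone none of the 4 rises was called, at -0.29 for MED10, 0.05 for MED21, -0.19 for MED26 and -0.18 for MED31. A single rise was called in KMS-11 and another in RPMI8226, or 12.5% in each. Of all genes 38.5% and 32.2% were called there, and of those with a mean of at least 10 CPM 58.4% and 47.6%.

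MED31 (ENSG00000108590; chromosome 17, 6643315 to 6651634, minus strand), one of the most conserved subunits, had 11.5 and 9.74 CPM in JQ1 libraries of RPMI8226, against 5.33 and 7.65 CPM in DMSO libraries. KMS-11 had 5.76 and 4.88 CPM with JQ1, against 3.91 and 3.40 CPM with DMSO, and KMS-12 8.83 and 8.26 CPM, against 5.27 and 6.08 CPM. JQ1 libraries were above DMSO libraries in every line. The average log2 change was 0.61 (SE 0.13; edgeR quasi-likelihood, BH-adjusted p = 0.000557). In RPMI8226 (0.70) the call was lost without JQ1 replicate 1 (0.58) or DMSO replicate 1 (0.47), and in KMS-12 (0.59) without any of its own libraries (0.49 to 0.70). TXNDC17 on the opposite strand shares 58.3% of the exonic bases of MED31, and whether the counting used the strand is not given in the sources used here. TXNDC17 itself rose (0.97 for KMS-11, 0.89 for KMS-12) and stood at 0.28, not called, in RPMI8226. Whether reads of TXNDC17 were counted for MED31 was not tested, and other pairs of overlapping genes give no measure of it.

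MED1, the middle subunit that binds nuclear receptors, had 158 and 157 CPM in JQ1 libraries of KMS-12, against 189 and 193 CPM in DMSO libraries. KMS-11 had 164 and 191 CPM with JQ1, against 136 and 169 CPM with DMSO, and RPMI8226 124 and 121 CPM, against 103 and 107 CPM. MED1 was thus lower in KMS-12 with no overlap, higher in RPMI8226 with no overlap, and overlapping in KMS-11. The log2 change was -0.28 in KMS-12 (SE 0.10), and 0.22 in both KMS-11 and RPMI8226, neither called. The difference between lines (edgeR F test, BH-adjusted p = 0.0174) held under the 4 scalings, and was lost without KMS-12 JQ1 replicate 1 (0.0747), JQ1 replicate 2 (0.0893), DMSO replicate 1 (0.0576) or DMSO replicate 2 (0.0774). The KMS-12 fall was lost without the same libraries, at -0.29, -0.27, -0.29 and -0.26 in that order.

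MED26, the docking site for elongation factors, had 20.9 and 23.8 CPM in JQ1 libraries of KMS-11, against 15.4 and 16.3 CPM in DMSO libraries. KMS-12 had 23.6 and 22.3 CPM with JQ1, against 15 and 15.6 CPM with DMSO, and RPMI8226 24.5 and 19.4 CPM, against 22.0 and 19.1 CPM. The groups were apart in the KMS lines and overlapped in RPMI8226. The fitted log2 change was 0.50 in KMS-11 (SE 0.15), lost without JQ1 replicate 2 (0.40) or DMSO replicate 1 (0.45), 0.58 in KMS-12 (SE 0.15) and 0.10 in RPMI8226, with no call for a difference between them. Under library size alone it was 0.24 in KMS-11, not called, and turned to -0.19 in KMS-12. ENSG00000141979 on the same strand shares 27.2% of the exonic bases of MED26, so reads could be split between them.

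MED10 and MED21, small subunits of the middle module, were called in KMS-12 alone. MED10 had 23.2 and 24.7 CPM in JQ1 libraries of KMS-12, against 17.3 and 17.2 CPM in DMSO libraries. In KMS-11 it had 31.9 and 37.5 CPM with JQ1, against 39.4 and 41.3 CPM with DMSO, and in RPMI8226 13.5 and 14.0 CPM, against 15.8 and 14.1 CPM. JQ1 libraries were above DMSO libraries in KMS-12 and below them in the other lines. The log2 change of MED10 was 0.48 in KMS-12 (SE 0.13), lost without JQ1 replicate 2 (0.44), and -0.22 and -0.12 in KMS-11 and RPMI8226, not called. MED21 stood at 0.82 in KMS-12 (SE 0.12), 0.11 in KMS-11 and 0.27 in RPMI8226. Scaled by library size alone, the KMS-12 values were -0.29 for MED10 and 0.05 for MED21, neither called.

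Both responses differed between lines with TMM scaling (edgeR F test, BH-adjusted p = 0.0128 for MED10 and 0.0112 for MED21). With library size alone neither did (0.317 and 0.217), and without MALAT1 in it neither did (0.388 and 0.347). The MED10 difference was also lost without KMS-12 JQ1 replicate 2 (0.0721), DMSO replicate 1 (0.0568) or DMSO replicate 2 (0.0572), and the MED21 difference without KMS-12 JQ1 replicate 1 (0.0501), JQ1 replicate 2 (0.0503) or DMSO replicate 1 (0.101). The middle genes MED4, MED7 and MED9 were called in no line, with average log2 values of 0.14, -0.10 and -0.02.

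MED14 (ENSG00000180182; chromosome X, 40648306 to 40735858, minus strand), the backbone of the complex, rose in each line, and its responses were not called as different between lines (edgeR F test, BH-adjusted p = 0.192). RPMI8226 had 163 and 164 CPM in JQ1 libraries, against 105 and 113 CPM in DMSO libraries. KMS-11 had 126 and 138 CPM with JQ1, against 94.9 and 103 CPM with DMSO, and KMS-12 135 and 134 CPM, against 83.1 and 82.0 CPM. No JQ1 library overlapped a DMSO library of its line. Fitted log2 changes were 0.59 in RPMI8226 (SE 0.09), 0.41 for KMS-11 (SE 0.09), 0.71 for KMS-12 (SE 0.09) and 0.57 in the average (SE 0.05; edgeR quasi-likelihood, BH-adjusted p = 5.15e-08). Under library size alone the average was still called, while KMS-11 stood at 0.15 and KMS-12 at -0.06, neither called.

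The tail module split into a rising and a falling part. MED15, MED23 and MED25 were higher in the average of the lines and MED24 and MED16 lower, so that all 5 tail genes were called (median log2 change 0.23). Of all genes tested 49.0% were called, and 70.5% of those with a mean of at least 10 CPM. With MED27 to MED30 placed in the tail, 6 of 9 tail genes were called, or 66.7%. The falls were called under the 4 scalings, but the alternatives to TMM moved genes down and could hardly end a fall. With library size alone MED15 and MED25 were not called, at 0.04 and 0.02, and MED23 turned to -0.12.

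MED24 (ENSG00000008838; chromosome 17, 40019097 to 40061215, minus strand), a tail subunit known as a coactivator of nuclear receptors, had the largest fall of any member in the average of the lines. KMS-11 had 55.0 and 65.6 CPM in JQ1 libraries, against 97.5 and 112 CPM in DMSO libraries. KMS-12 had 60.9 and 57.7 CPM with JQ1, against 86.1 and 87.9 CPM with DMSO, and RPMI8226 35.4 and 28.9 CPM, against 59.6 and 55.9 CPM. JQ1 libraries were below DMSO libraries throughout. The change on the log2 scale was -0.73 in the average (SE 0.07; edgeR quasi-likelihood, BH-adjusted p = 5.60e-08), with KMS-11 at -0.80, KMS-12 at -0.55 and RPMI8226 at -0.84. Its promoter is shown beside those of the risers, with the same windows and capitals.
MED24 (chr17:40054359-40054658, minus strand): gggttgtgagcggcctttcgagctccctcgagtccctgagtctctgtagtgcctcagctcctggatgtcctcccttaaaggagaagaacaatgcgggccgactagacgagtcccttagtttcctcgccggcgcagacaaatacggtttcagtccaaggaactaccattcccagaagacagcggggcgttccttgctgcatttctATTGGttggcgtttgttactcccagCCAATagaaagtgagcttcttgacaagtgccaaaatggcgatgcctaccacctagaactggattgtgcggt
It holds 2 CCAAT boxes and none of the other 5 motifs, and its RefSeq start lies inside the longer gene of the GENCODE annotation.

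MED16, another tail subunit, fell less: its average was -0.26 (SE 0.06), and KMS-11 alone was called (-0.35), lost without JQ1 replicate 1 (-0.32), JQ1 replicate 2 (-0.37) or DMSO replicate 1 (-0.26) of that line. MED15, the tail subunit bound by sterol regulators of the SREBP family, was called at 0.68 in KMS-12 and 0.44 in KMS-11 and stood at 0.05 in RPMI8226. The MED15 responses differed between lines (edgeR F test, BH-adjusted p = 0.00930), though not with library size alone (0.281) or without MALAT1 in it (0.214). MED23, which binds the ETS factor ELK1, and MED25, the target of the viral activator VP16, were each called in KMS-12 alone, at 0.33 and 0.56. The MED23 call was lost without KMS-12 JQ1 replicate 1 (0.28), DMSO replicate 1 (0.31) or DMSO replicate 2 (0.36). In KMS-12 MED15, MED23 and MED25 turned to -0.09, -0.44 and -0.21 with library size alone. PTOV1-AS1 on the opposite strand shares 18.7% of the exonic bases of MED25.

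In the average of the lines 4 of the 7 kinase module genes rose, MED12 fell, and CDK8 and MED12L were not called (median log2 change 0.20). That is 71.4% called, where 49.0% of all genes tested were and 70.5% of those with a mean of at least 10 CPM. The response differed between lines for 5 of the 7, namely CCNC, CDK19, MED13L, MED12 and MED13 (edgeR F test, BH-adjusted p under 0.05), of which CCNC, CDK19 and MED13 were called under the 4 scalings. The F test has no direction, and the pattern between lines could change with the scaling. For MED13, RPMI8226 minus KMS-12 was -0.50 with TMM and 0.24, not called, with library size alone. For CDK19, KMS-12 minus KMS-11 was 0.71 with TMM and 0.20, not called, with library size alone. Over all 33 members 12 differed, or 36.4%, where 30.1% of all genes tested did and 52.2% of genes with a mean of at least 10 CPM. The F test called 6 of the 12 under the 4 scalings, namely MED22, MED28, MED1, CCNC, CDK19 and MED13.

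Between pairs of lines, the response of KMS-12 minus KMS-11 differed for 9 members, 7 higher and 2 lower, where 20.0% of all genes tested differed, 10.1% higher and 9.87% lower. Of the 7 higher calls, 6 were lost with library size alone, all but that of CCNC, while both lower calls (MED22 and MED1) held. Library size alone moved KMS-12 down more than KMS-11 (median over all genes -0.77 against -0.26), so it could hardly end a lower call. RPMI8226 minus KMS-11 differed for CDK19, higher, and MED13, lower, where 11.4% of all genes did, 6.70% higher and 4.72% lower. The MED13 call (-0.44) was lost with library size alone (-0.21), without MALAT1 in it (-0.36), and without any one library other than DMSO replicate 2 of KMS-11, at -0.35 to -0.48. RPMI8226 minus KMS-12 differed for 10 members, 1 higher and 9 lower, where 23.4% of all genes did, 12.3% higher and 11.1% lower. Of the 9 lower calls, none was left with library size alone: CCNC (-0.13) and MED29 (-0.18) were not called, and the other 7 turned to values of 0.09 (MED12) to 0.31 (MED28), while the higher one (MED1) held. That scaling moved RPMI8226 by only -0.03, so differences from KMS-12 moved up and a higher call could hardly be lost. These pairs share lines and are not independent.

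CCNC (ENSG00000112237; chromosome 6, 99542380 to 99568973, minus strand), the cyclin that activates CDK8 and CDK19, was called in KMS-12 and in neither other line. KMS-12 had 222 and 216 CPM in JQ1 libraries, against 123 and 132 CPM in DMSO libraries. KMS-11 had 80.3 and 87.3 CPM with JQ1, against 92.8 and 102 CPM with DMSO, and RPMI8226 58.3 and 64.9 CPM, against 65.6 and 65.7 CPM. The libraries did not overlap in any line, with JQ1 above in KMS-12 and below in both other lines. The log2 change was 0.78 in KMS-12 (SE 0.09), -0.22 in KMS-11 (SE 0.09) and -0.09 in RPMI8226 (SE 0.10), the last pair not called. The KMS-12 response exceeded that of KMS-11 by 0.99 (SE 0.13; edgeR quasi-likelihood, BH-adjusted p = 3.41e-05), and the difference over the 3 lines had a BH-adjusted p of 3.06e-05 (edgeR F test). The value moved with the scaling, to 0.01 in KMS-12 and -0.20 in the average when library size alone was used. The average (0.16) was also lost without KMS-11 JQ1 replicate 2 (0.14), KMS-12 JQ1 replicate 1 (0.15), KMS-12 DMSO replicate 1 (0.14), RPMI8226 JQ1 replicate 2 (0.13), or RPMI8226 DMSO replicate 1 or 2 (0.16 for each).

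The paralogous kinases CDK8 and CDK19 were called in different lines. CDK19 (ENSG00000155111; chromosome 6, 110609978 to 110815958, minus strand) had 38.4 and 38.7 CPM in JQ1 libraries of RPMI8226, against 23.7 and 25.5 CPM in DMSO libraries. KMS-12 had 73.7 and 73.8 CPM with JQ1, against 52.9 and 55.4 CPM with DMSO, and KMS-11 40.8 and 38.4 CPM, against 42.6 and 52.9 CPM. JQ1 libraries were above DMSO libraries in RPMI8226 and KMS-12 and below them in KMS-11. The fitted log2 change was 0.65 in RPMI8226 (SE 0.11), 0.45 in KMS-12 (SE 0.11) and -0.27 in KMS-11 (SE 0.11), the last not called (edgeR quasi-likelihood, BH-adjusted p = 0.0681). RPMI8226 exceeded KMS-11 by 0.92 (SE 0.16; edgeR, BH-adjusted p = 0.000939). In KMS-12 CDK19 turned to -0.32 with library size alone and to -0.02 without MALAT1 in it.

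CDK8 (ENSG00000132964; chromosome 13, 26254104 to 26405238, plus strand) had 24.7 and 24.5 CPM in JQ1 libraries of KMS-11, against 16.1 and 19.5 CPM in DMSO libraries. KMS-12 had 21.2 and 19.4 CPM with JQ1, against 23.3 and 19.2 CPM with DMSO, and RPMI8226 24.7 and 20.1 CPM, against 21.3 and 17.9 CPM. The groups were apart in KMS-11 and overlapped in the other lines. The fitted log2 change was 0.47 in KMS-11 (SE 0.16; edgeR quasi-likelihood, BH-adjusted p = 0.0250), lost with library size alone (0.21) and without JQ1 replicate 1 (0.46), JQ1 replicate 2 (0.47) or DMSO replicate 1 (0.33) of KMS-11. The CDK8 responses were not called as different between lines (edgeR F test, BH-adjusted p = 0.178).

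Within a library, the ratio of CDK8 to CDK19 in CPM per kilobase of exon does not depend on the scaling. In KMS-11 the ratio was 1.28 and 1.35 in JQ1 libraries, against 0.801 and 0.783 in DMSO libraries. In KMS-12 it was 0.609 and 0.555 with JQ1, against 0.934 and 0.734 with DMSO, and in RPMI8226 1.36 and 1.10 with JQ1, against 1.91 and 1.49 with DMSO. JQ1 libraries were above DMSO libraries in KMS-11 and below them in KMS-12 and RPMI8226, with no overlap. No test was run on these ratios.

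MED12 (ENSG00000184634; chromosome X, 71118556 to 71142454, plus strand), which activates the kinase, had 53.2 and 50.2 CPM in JQ1 libraries of RPMI8226, against 87.9 and 82.6 CPM in DMSO libraries. KMS-11 had 111 and 126 CPM with JQ1, against 139 and 167 CPM with DMSO, and KMS-12 67.0 and 60.1 CPM, against 68.3 and 65.5 CPM. JQ1 was below DMSO with no overlap in RPMI8226 and KMS-11, and overlapped with it in KMS-12. The change on the log2 scale was -0.72 in RPMI8226 (SE 0.11), -0.37 for KMS-11 (SE 0.11) and -0.07 for KMS-12 (SE 0.11), the last not called. In KMS-11 the call was lost without JQ1 replicate 1 (-0.28) or DMSO replicate 2 (-0.22). The difference between lines (edgeR F test, BH-adjusted p = 0.0109) was lost without KMS-12 JQ1 replicate 1 (0.0617), with library size alone (0.430) and without MALAT1 in it (0.251). The fall in the average of the lines was -0.39 (SE 0.06; edgeR quasi-likelihood, BH-adjusted p = 3.97e-05).

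MED12L (ENSG00000144893; chromosome 3, 151085697 to 151437072, plus strand), the paralog of MED12, was read in KMS-11 alone. KMS-11 had 118 and 142 reads in JQ1 libraries, against 131 and 177 reads in DMSO libraries, and all 8 libraries of KMS-12 and RPMI8226 had 0. In CPM the KMS-11 values were 5.61 and 7.96 with JQ1 and 5.07 and 7.62 with DMSO, which overlap, with a log2 change of 0.10 (SE 0.31). With a floor of 3 counts over the group, MED12L in DMSO stood at least 116-fold lower in KMS-12 and at least 92.9-fold lower in RPMI8226 than in KMS-11. IGSF10 on the opposite strand covers 28.8% of the exonic bases of MED12L and had 2852 reads in JQ1 libraries and 12721 in DMSO libraries of RPMI8226, where MED12L had 0, so bases shared with IGSF10 gave MED12L no counts. MED12L passed the filter on low counts through KMS-11 alone, and its average over the lines has no meaning.

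MED13 and MED13L, the paralogs that tie the kinase to the core, were read at high levels in all lines. MED13 (ENSG00000108510; chromosome 17, 61942605 to 62065282, minus strand) had 565 and 600.3 CPM in JQ1 libraries of KMS-11, against 432 and 492 CPM in DMSO libraries. KMS-12 had 373 and 370.3 CPM with JQ1, against 272 and 291 CPM with DMSO, and RPMI8226 278 and 287 CPM, against 311 and 296 CPM. JQ1 libraries were above DMSO libraries in both KMS lines and below them in RPMI8226. The log2 change of MED13 was 0.33 for KMS-11 (SE 0.09), 0.40 for KMS-12 (SE 0.09) and -0.10 for RPMI8226 (SE 0.10), the last not called. Scaled by library size alone, it was 0.08 in KMS-11, not called, and turned to -0.37 in KMS-12. The KMS-11 call was lost without JQ1 replicate 2 (0.29) or DMSO replicate 1 (0.24), and the difference between lines (edgeR F test, BH-adjusted p = 0.0139) without RPMI8226 JQ1 replicate 1 (0.0515) or DMSO replicate 1 (0.0744).

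MED13L (ENSG00000123066; chromosome 12, 115953872 to 116277719, minus strand) had 678 and 681 CPM in JQ1 libraries of KMS-12, against 391 and 406 CPM in DMSO libraries. RPMI8226 had 351 and 318 CPM with JQ1, against 290 and 287 CPM with DMSO, and KMS-11 243 and 242 CPM, against 219 and 266 CPM. The groups were apart in KMS-12 and RPMI8226 and overlapped in KMS-11. The log2 change was 0.77 in KMS-12 (SE 0.10), 0.21 in RPMI8226 and 0.00 in KMS-11, with KMS-12 above KMS-11 by 0.77 (SE 0.14; edgeR quasi-likelihood, BH-adjusted p = 0.000758). With library size alone the KMS-12 value was 0.00 and that difference was 0.26, not called. The difference over the 3 lines (edgeR F test, BH-adjusted p = 0.00122) was lost with library size without MALAT1 (0.0533).

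Per kilobase of exon, MED13 exceeded MED13L in every library. The ratio of MED13 to MED13L was 1.62 and 1.60 in JQ1 libraries of KMS-12, against 2.05 and 2.11 in DMSO libraries. In RPMI8226 it was 2.33 and 2.66 with JQ1, against 3.16 and 3.04 with DMSO, and in KMS-11 6.86 and 7.32 with JQ1, against 5.83 and 5.45 with DMSO. JQ1 libraries were thus lower in KMS-12 and RPMI8226 and higher in KMS-11, with no overlap and no test run. With the lengths of basic transcripts the KMS-12 ratios were 0.770 and 0.761 with JQ1, against 0.975 and 1.00 with DMSO, so which paralog is higher there hangs on the lengths used.

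**Figure D3:**
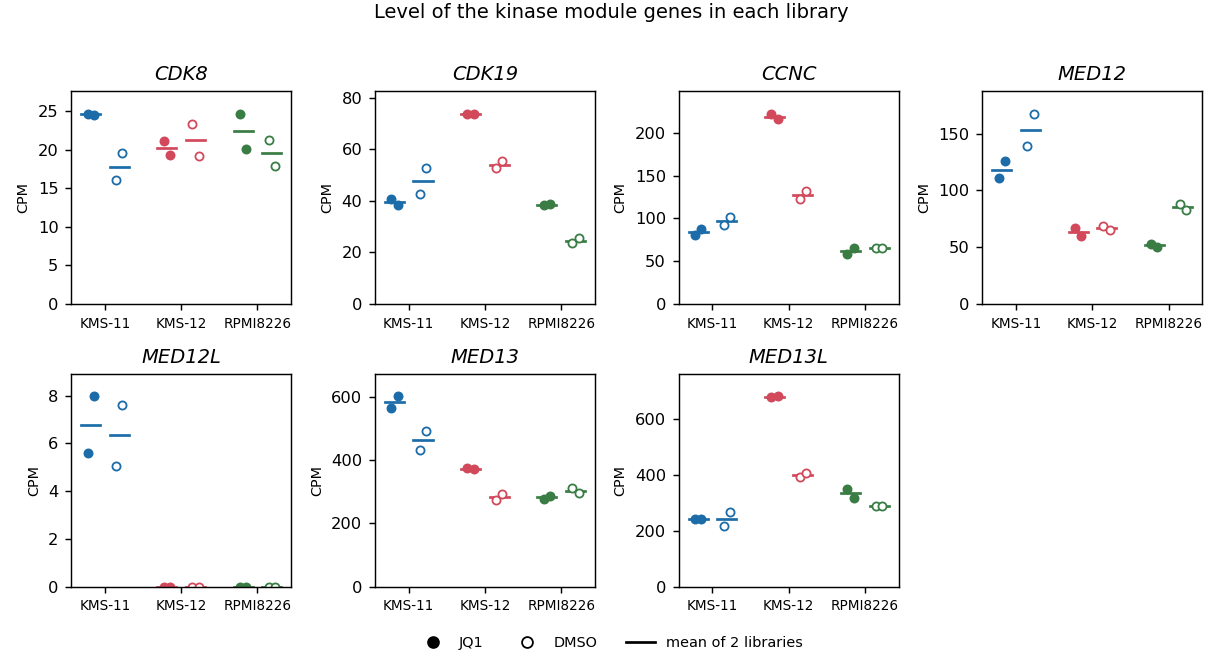
Level in CPM (y axis, from 0) of the 7 kinase module genes in each library, JQ1 as filled points left of DMSO as open points, with a line at the mean of the 2 libraries. CCNC and MED13L stand highest in the KMS-12 JQ1 libraries, CDK19 is higher with JQ1 in KMS-12 and RPMI8226, and MED12L is at 0 outside KMS-11.

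In the DMSO controls the lines differed in most Mediator genes, about as often as in all genes tested. The DMSO level differed between lines for 27 of 33 members, or 81.8%, where 80.2% of all genes tested did and 90.0% of those with a mean of at least 10 CPM. The 6 members not called were MED11, MED16, MED18, MED21, MED27 and CDK8. MED12L had to differ, since it passed the filter through KMS-11 alone. KMS-11 was higher than KMS-12 for 12 members and lower for 10, where 62.9% of all genes tested were called, 32.7% higher and 30.2% lower. Against RPMI8226 it was higher for 15 and lower for 8, where 58.2% of all genes were called, 28.2% higher and 30.0% lower. KMS-12 was higher than RPMI8226 for 12 members and lower for 9, where 62.5% of all genes were called, 29.3% higher and 33.2% lower.

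Per kilobase of exon, MED13 was the most read member in DMSO in KMS-11 at 36.4 ± 3.32 CPM per kb and in RPMI8226 at 23.9 ± 0.834 CPM per kb (SD, n = 2). In KMS-11 MED10 at 21.5 ± 0.707, MED1 at 20.8 ± 3.14 and MED12 at 20.6 ± 2.71 CPM per kb followed, within their spread of one another. In KMS-12 MED1 stood first at 26.1 ± 0.361 CPM per kb, followed by MED13 at 22.2 ± 1.05 and CCNC at 22.1 ± 1.15 CPM per kb, which did not differ beyond their spread. In RPMI8226 MED8 came after MED13, at 21.1 ± 2.42 CPM per kb, and MED1 after that at 14.3 ± 0.319. MED12L and MED11 were among the 5 lowest in each line, where MED11 had 1.30 ± 0.273 CPM per kb (KMS-11), 1.67 ± 0.267 (KMS-12) and 2.24 ± 0.710 (RPMI8226). The order rests on exon lengths: with lengths of basic transcripts alone, CCNC stood first in KMS-12 and MED13L among the first 5 in KMS-12 and RPMI8226.

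Of the named differences in DMSO, MED10 was higher in KMS-11 than in RPMI8226 by 1.43 on the log2 scale (SE 0.13) and than in KMS-12 by 1.23 (SE 0.13). MED10 had 39.4 and 41.3 CPM in KMS-11, 17.3 and 17.2 CPM in KMS-12 and 15.8 and 14.1 CPM in RPMI8226. MED12 was higher in KMS-11 than in KMS-12 by 1.19 (SE 0.11) and CDK19 was higher in KMS-12 than in RPMI8226 by 1.14 (SE 0.11). All 4 differences had an edgeR quasi-likelihood BH-adjusted p of at most 1.48e-07. MED30 was higher in KMS-12 than in both other lines, by 1.64 over RPMI8226 (SE 0.24), at a level of 10.1 ± 1.47 CPM (SD, n = 2).

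**Figure D4:**
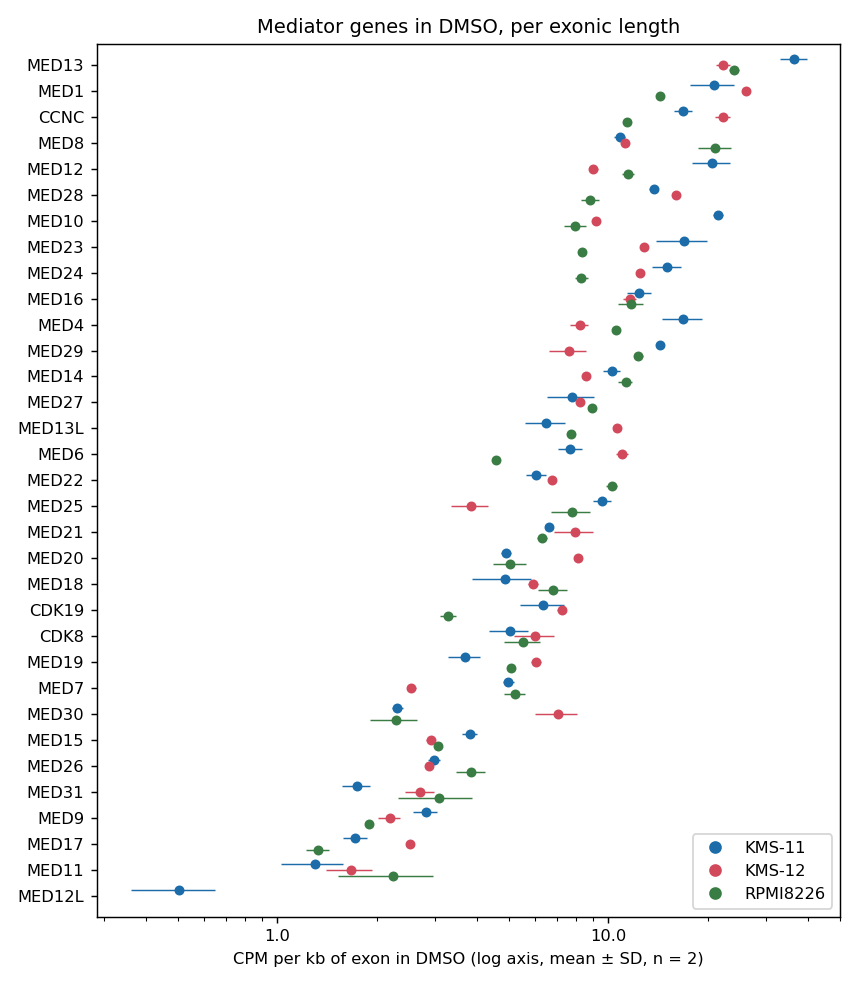
Level of each Mediator gene in DMSO in CPM per kilobase of exon (x axis, log scale, mean ± SD of 2 libraries) in the 3 lines, ordered by the mean. MED13, MED1 and CCNC lie at the top, MED11 and MED12L at the bottom, and MED12L is drawn for KMS-11 only since it had 0 reads in the other lines.

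The polymerase and initiation factors that Mediator works with were mostly called higher. Of 43 genes of RNA polymerase II, the general factors and TFIID, 26 rose and 1 fell in the average of the lines (edgeR quasi-likelihood, BH-adjusted p under 0.05), with a median log2 change of 0.25. That is 62.8% called, where 49.0% of all genes tested were, 22.3% higher and 26.7% lower, and where 70.5% of genes with a mean of at least 10 CPM were, 34.5% higher and 36.0% lower. POLR2A, the catalytic subunit of the polymerase, rose by 1.13 (SE 0.06), POLR2E, a subunit shared by all nuclear polymerases, by 0.60 (SE 0.05), and the TFIID subunits TAF3 and TAF7 by 0.75 (SE 0.06) and 0.61 (SE 0.05). POLR2K, another shared subunit, was the gene that fell, at -0.28 (SE 0.06). As with Mediator, library size alone moved the split, to 10 rises and 16 falls.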

How the data were processed

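RNA of 12 libraries was sequenced after removal of ribosomal RNA with a strand-keeping kit, per the labels' protocols. The authors deposited raw counts per gene, one whole number for each of 60666 genes and library. The submitters' processing notes name DESeq2, MACS2, hg38 and GRCh38.p13 without a role. The aligner, the counter and any use of strand were not given in the sources used here. Replicate columns were matched to samples by name. Symbols were found for 99.62% of IDs, and exon lengths and positions come from GENCODE 29 on GRCh38.

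The members, modules and lists were chosen with earlier results of these data known. Genes passed a filter of about 10 reads in 2 libraries (filterByExpr), which left 23493 genes and 99.90% to 99.96% of counts. A floor of 3 counts equals 0.107 to 0.178 CPM, for counting error only. A single edgeR 4.0.16 quasi-likelihood fit of 6 groups with TMM scaling (R 4.3.3) gave all tests, adjusted by Benjamini-Hochberg over all genes, threshold 0.05. The fit was also run on simulated data, which gave every line the same mean per gene and changed few genes, up and down alike. That run did not cover lines that differ or a broad shift with JQ1. Alternatives were RLE, library size alone or without MALAT1, no filter, at least 10 CPM, DESeq2 1.42.0, limma-voom (limma 3.58.1), a replicate block, a test against 1.5-fold and each library left out. Values per library are given for the 4 largest rises and falls in the average, the smallest p-values for differences between lines, the kinase module, MED1, MED14 and MED26, and other members by fold change.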

Additional observations from a re-analysis of the deposited data

Results flagged for a closer look

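The JQ1 response differed between the 3 lines for 12 Mediator genes, by an edgeR quasi-likelihood F test over the differences of the responses with Benjamini-Hochberg adjustment over all genes tested. The adjusted p was 3.06e-05 for CCNC, 0.000456 for MED28, 0.000504 for MED29, 0.000599 for CDK19, 0.00122 for MED13L and 0.00629 for MED22. It was 0.0093 for MED15, 0.0109 for MED12, 0.0112 for MED21, 0.0128 for MED10, 0.0139 for MED13 and 0.0174 for MED1.

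With TMM scaling, the log2 change farthest from 0 was in KMS-12 for 10 of the 12. It was 0.78 for CCNC, 0.48 for MED28, 1.09 for MED29, 0.77 for MED13L and 0.82 for MED21. For MED10 it was 0.48, for MED15 0.68, for MED13 0.40, for MED22 -0.95 and for MED1 -0.28. For CDK19 and MED12 the change farthest from 0 was in RPMI8226, at 0.65 and -0.72. The share of all genes with their largest change in KMS-12 was not counted. Of all genes tested, 46.0% were called in KMS-12, against 38.5% in KMS-11 and 32.2% in RPMI8226. With library size alone, the KMS-12 values of CCNC, MED13L and MED21 were near 0. Those of MED28, MED10, MED15 and MED13 turned, and those of MED29, MED22 and MED1 kept their direction. KMS-12 was also the line in which library size alone shifted the log2 change of a gene most, by a median over all genes of -0.77. Of the 12 differences, 6 were called under all 4 scalings, namely MED22, MED28, MED1, CCNC, CDK19 and MED13, by a test that has no direction.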

How the results depend on the processing

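Scaling decided most rises, while falls in the average could hardly be lost, since the alternatives to TMM moved genes down. With library size alone the counts higher and lower were 5 and 17 in the average, 2 and 13 in the KMS-11 line, 1 and 20 in KMS-12, and 10 and 16 for the polymerase and initiation factors, and 20 members differed in response between lines. Without MALAT1 in the library size they were 6 and 12 in KMS-12, and 14 and 4 for the initiation list. Against 1.5-fold they were 2 and 1 in the average, for KMS-11 1 and 0, for KMS-12 5 and 1, 4 and 0 for the initiation list, and 0 higher and 1 lower in RPMI8226. At 10 CPM or more KMS-12 had 7 lower and the initiation list 2 lower; the average of KMS-11 and RPMI8226 had 0 initiation genes lower, and the alternative modules gave 3 head genes higher.

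With library size alone the average turned to -0.16 for MED17, -0.28 for MED28, -0.30 for MED1, -0.21 for MED4, -0.31 for MED10, -0.12 for MED23, -0.20 for CCNC, -0.076 for CDK19, -0.14 for MED13 and -0.023 for MED13L, and without MALAT1 CCNC to -0.023. In KMS-12 it turned to -0.41 for MED17, -0.15 for MED19, -0.35 for MED20, -0.46 for MED27, -0.29 for MED28, -0.55 for MED4, -0.29 for MED10, -0.19 for MED26, -0.18 for MED31, -0.063 for MED14, -0.093 for MED15, -0.44 for MED23, -0.21 for MED25, -0.32 for CDK19 and -0.37 for MED13. Without MALAT1, KMS-12 turned to -0.11 for MED17, -0.044 for MED20, -0.14 for MED23, -0.023 for CDK19 and -0.069 for MED13.

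The response of KMS-12 minus KMS-11 turned to -0.41 for MED23 and -0.45 for MED13 with library size alone, and to -0.33 for MED13 without MALAT1. That of RPMI8226 minus KMS-12 turned, with library size alone, to 0.68 for MED6, 0.49 for MED17, 0.31 for MED28, 0.62 for MED4, 0.15 for MED10, 0.19 for MED21, 0.62 for MED14, 0.11 for MED15, 0.54 for MED23, 0.45 for MED24, 0.50 for MED25, 0.093 for MED12, 0.24 for MED13 and 0.18 for MED13L, and without MALAT1 to 0.044 for MED28 and 0.35 for MED14. In DMSO, KMS-11 minus KMS-12 turned to -0.021 for MED14 and -0.018 for MED24 without MALAT1. The cause was not tested beyond the median shift per gene.

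Leaving out each library gave 14 to 19 higher and 5 to 7 lower in the average, for KMS-11 5 to 11 and 3 to 6, 13 to 18 and 2 to 4 in KMS-12, 4 to 8 and 4 to 4 in RPMI8226, 25 to 27 and 1 to 1 for the initiation list, 9 to 13 differing responses and 26 to 30 differing DMSO levels. The group with 1 library left was then assumed to vary like the others. Deviations of same-numbered libraries correlated weakly (0.106 for KMS-11, 0.0122 for KMS-12, 0.104 for RPMI8226). Weak correlations can also arise with pairing, so whether the numbers pair samples was not decided. With the replicate block the counts higher and lower were 17 and 6 in the average and 27 and 1 for the initiation list. By line they were 12 and 6 (KMS-11), 18 and 6 (KMS-12) and 8 and 4 (RPMI8226). The block gave 12 differing responses and 25 differing DMSO levels. Low reads limit MED11, MED30, MED31 and MED12L.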
